A study of Arabidopsis thaliana with 18 samples.

Results

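The response of rgs1 guard cells to sucrose was measured against the response to mannitol on 6 arrays, 3 for each sugar, out of the 18 arrays of the series. Guard cells are the paired epidermal cells that open and close the stomatal pores of a leaf. RGS1 is a membrane protein that returns the G-protein alpha subunit to its inactive state, and in Arabidopsis it has been linked to the sensing of extracellular sugars. Sugars act in plants as fuel and as signals. A shortage of carbon activates the kinase SnRK1 and with it genes for salvaging cell material, while a good supply favours starch storage, ribosome production and growth.

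The mutant plants carried the null insertion allele rgs1-2 in the Col-0 background. All rgs1 samples came from this single line, so a feature of the line and the loss of RGS1 cannot be told apart. Plants were 8 to 10 weeks old and had been grown with 8 h of light and 16 h of darkness. Leaf strips 1 mm wide were kept for 5 h in a buffer that held KCl (50 mM) and CaCl2 (0.1 mM), to which 150 mM sucrose or 150 mM mannitol was added, or no sugar. Mannitol, which plant cells take up and use poorly, served as the osmotic control. Guard cells were then dissected from the freeze-dried strips, 50 to 100 pairs a sample, each sample coming from a different plant, and their RNA was amplified in 2 rounds before hybridization to ATH1 arrays. The members of the comparison are the 3 rgs1 samples labelled as treated with sucrose and the 3 labelled as treated with mannitol. The 3 rgs1 samples without sugars and the 9 wild-type (Col-0) samples, 3 for each treatment, are used for reference.

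All values are log2 signals. A value below 4 was taken as near background, and 22746 probe sets were measured, of which 11201 reached 4 on at least 3 of the 6 arrays and were tested with limma. Between 47.6 and 48.5% of probe sets reached 4 on each of the 9 rgs1 arrays. Arrays of the same treatment correlated at 0.91 to 0.945 and arrays of different sugars at 0.866 to 0.949 (Pearson's r across probe sets of the 6 arrays), so that these ranges overlapped. The median gene had a standard deviation of 0.71 among the sucrose arrays, 0.63 among the mannitol arrays and 0.58 among the arrays without sugars. With 3 plants against 3, an exact permutation test cannot give a two-sided p below 0.10.

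The genotype was visible in its own transcript. RGS1 (AT3G26090) had 3.14, 3.69 and 3.57 with sucrose, against 5.75, 4.93 and 5.73 with mannitol, and 5.13, 3.42 and 4.68 without sugars, in rgs1 guard cells. Wild-type guard cells had 9.59, 9.52 and 10.31 with sucrose, 8.88, 10.35 and 8.17 with mannitol, and 9.48, 10.26 and 10.37 without sugars. All 9 rgs1 arrays lay below all 9 wild-type arrays. Within rgs1 the signal that remained was lower on every sucrose array than on every mannitol array, and the log2 difference of -2.005 did not pass (limma, adjusted p = 0.192). Where the probes lie relative to the insertion was not determined.

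The labelled cell type was checked against its markers. Of 14 guard cell markers, all were tested, none had treatments that did not overlap, their differences between sucrose and mannitol lay between -0.27 and 0.81, and their lowest value on the 6 arrays was 7.46. The 8 phloem markers, SUC2, SWEET11 and SWEET12 among them, were below 4 on all 9 rgs1 arrays, with a highest value of 3.53 on the 6 arrays compared. For photorespiration and carbonic anhydrase genes, abundant in mesophyll, the median difference was -0.11 over 8 genes. Of the 8, 1 had treatments that did not overlap, against 18.1% of all genes tested. Other genes abundant in mesophyll were lower by their means with sucrose, all 30 tested genes of the photosystems and light harvesting and 13 of 17 of the Calvin cycle, with medians of -0.92 and -1.03. Of 3 trichome markers, GL1 and TRY stayed below 4 on every rgs1 array. TTG2 had 8.70, 2.65 and 2.89 with sucrose, against 3.15, 3.25 and 3.16 with mannitol, so that sucrose replicate 1 stood apart from the rest. Of 7 epidermis markers 4 were tested, with a median difference of 0.26 (0.072 without sucrose replicate 1). Only the wax synthesis gene CER6 among them was higher with sucrose without overlap (against 9.62% of all genes tested). The part of these markers in the results was not tested. In a bulk sample, fewer cells of a type and less RNA per cell cannot be told apart.

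Between sucrose and mannitol, 3 of 11201 genes (0.0268%) passed limma's test at an adjusted p under 0.05. AT3G43270 and AT1G80130 rose with sucrose (2 genes, 0.0179%), and SQE6 fell (1 gene, 0.00893%). At an adjusted p under 0.1 there were 33 genes (0.295%), 19 higher with sucrose (0.17%) and 14 lower (0.125%). At 0.2 there were 217 (1.94%), and an unadjusted p under 0.05 was found for 1368 (12.2%). Every sucrose array lay outside the range of the mannitol arrays in 2022 genes (18.1%), 1078 of them higher with sucrose (9.62%) and 944 lower (8.43%). The median difference over all genes tested was 0.01.

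AT1G80130, annotated as a tetratricopeptide repeat-like protein, had 9.77, 9.65 and 10.03 with sucrose, against 4.63, 2.90 and 3.03 with mannitol. The sucrose values lay close together and all were above the mannitol values. It was 78.9-fold higher with sucrose (log2 difference 6.30, standard error 0.58, limma, adjusted p = 0.0373). Without sugars it had 8.64, 7.75 and 10.33, so that its level without sugars was nearer to sucrose and the mannitol arrays were the low ones. AT3G43270, for which the tables used here give no name, had 9.71, 9.42 and 10.11 with sucrose, against 3.85, 3.38 and 4.73 with mannitol. Again no sucrose array overlapped a mannitol array. Its log2 difference was 5.76 (standard error 0.52, limma, adjusted p = 0.0373), and its values of 5.63, 1.82 and 5.33 without sugars were nearer to mannitol.

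SQE6 (AT5G24160), a member of the squalene epoxidase family, whose best known members oxidize squalene on the way to sterols, had 2.88, 2.42 and 3.34 with sucrose, against 8.35, 8.94 and 10.37 with mannitol. All of the sucrose values were near background and all of the mannitol values were well above it. The log2 difference was -6.34 (standard error 0.63, limma, adjusted p = 0.0416). Without sugars SQE6 had 2.73, 3.22 and 3.30, also near background, and between mannitol and no sugars it passed the test as well (limma, adjusted p = 0.0346). Each of these 3 calls depended on nearly every array: leaving out rgs1 mannitol replicate 1 kept all 3, with 21 genes called in all, whereas each of the 3 was lost without mannitol replicate 2 or 3 or any of the 3 sucrose replicates. Without mannitol replicate 3 the count was 1, and it was 0 without mannitol replicate 2 or any sucrose replicate.

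**Figure D1:**
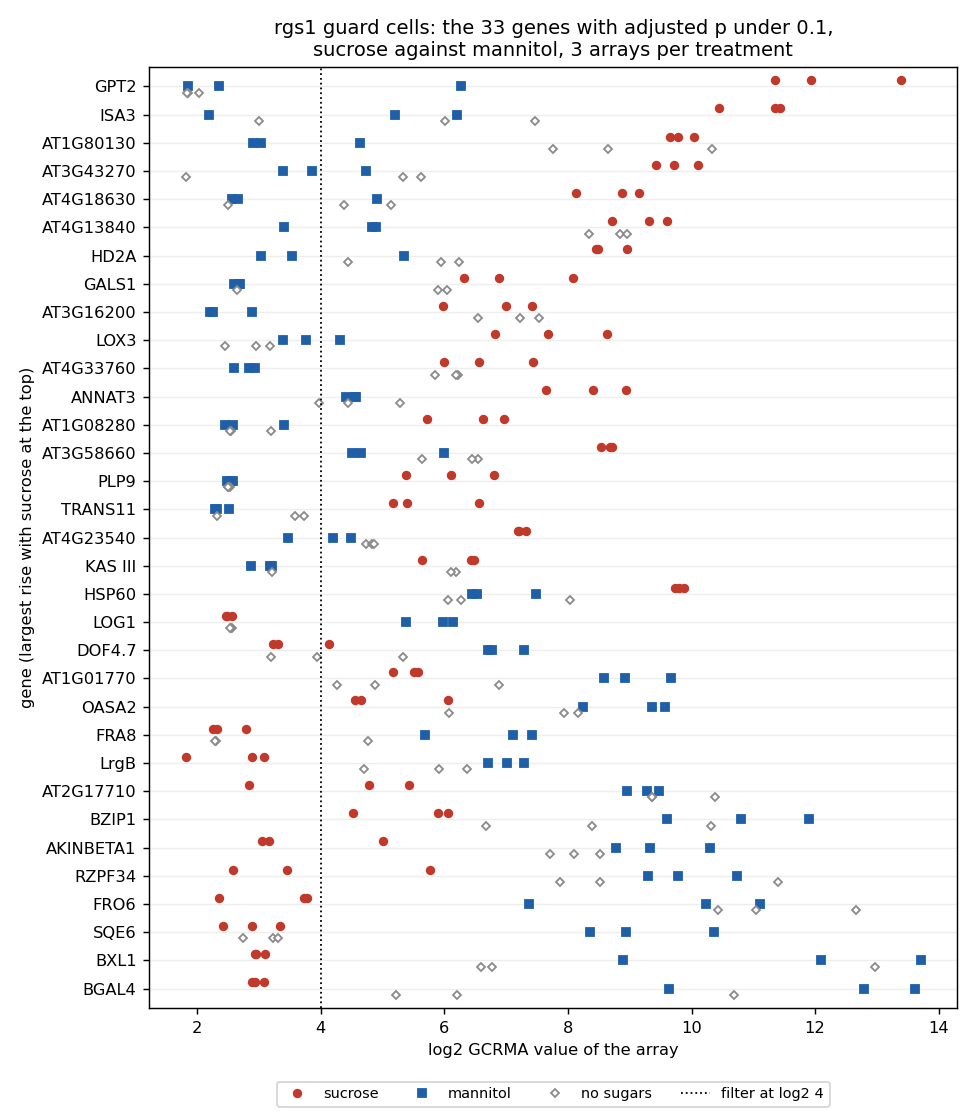
Log2 signal in rgs1 guard cells of the 33 genes at an adjusted p under 0.1, with each point an array and the horizontal axis in log2 units. In every row the 3 sucrose arrays lie apart from the 3 mannitol arrays, which the choice of the genes by this comparison favours, and the arrays without sugars fall nearer to mannitol in 22 of the 33.

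The 33 genes at an adjusted p under 0.1 differed by a median of 21.3-fold, between 7.92-fold and 527-fold. Values below about 4 are a floor rather than a level, so that the size of a fold change that ends there is set partly by the floor. Of the 14 genes lower with sucrose, 10 had a mean below 4 with sucrose, and of the 19 genes higher with sucrose 13 had a mean below 4 with mannitol. Most of these genes were thus measured with one sugar and near background with the other.

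Among the genes higher with sucrose, the largest difference was that of GPT2, which encodes a plastid translocator that imports glucose 6-phosphate. It had 11.93, 13.39 and 11.35 with sucrose, against 2.35, 1.85 and 6.26 with mannitol, and 2.02, 1.85 and 1.83 without sugars. The sucrose arrays stood above all other rgs1 arrays, and mannitol replicate 3 was the only array without sucrose above 4. The log2 difference from mannitol was 8.74 (standard error 1.18, limma, adjusted p = 0.0666), and the difference from no sugars was 10.32 (adjusted p = 0.0017). ISA3, an isoamylase that debranches starch, had 11.43, 11.34 and 10.45 with sucrose, against 5.19, 6.21 and 2.19 with mannitol. The sucrose values spanned less than the mannitol values, and the difference was 6.54 (adjusted p = 0.0827).

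The nucleolar histone deacetylase gene HD2A had 8.95, 8.46 and 8.49 with sucrose, against 5.35, 3.03 and 3.54 with mannitol. The sugars did not overlap, and the values without sugars, 5.94, 6.24 and 4.45, were nearer to mannitol. HSP60, which encodes a mitochondrial chaperonin, had 9.80, 9.88 and 9.72 with sucrose, against 6.45, 7.47 and 6.53 with mannitol. It was well above background with both sugars, and its sucrose values lay within 0.2 of each other. GALS1, a galactan synthase of the cell wall, had 8.09, 6.88 and 6.32 with sucrose, against 2.69, 2.59 and 2.68 with mannitol. Here the mannitol values were near background.

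LOX3, a lipoxygenase of jasmonate synthesis, had 8.63, 6.82 and 7.68 with sucrose, against 3.76, 4.30 and 3.39 with mannitol. All sucrose values were higher, and those without sugars, 2.95, 3.18 and 2.45, were near background. The annexin gene ANNAT3 had 8.95, 7.64 and 8.40 with sucrose, against 4.55, 4.40 and 4.57 with mannitol, and the patatin-like gene PLP9 had 5.37, 6.79 and 6.10 with sucrose, against 2.58, 2.49 and 2.55 with mannitol. With mannitol PLP9 was near background and ANNAT3 just above 4. AT1G08280, the glycosyltransferase GALT29A, differed by 3.63, and AT4G13840, the acyltransferase-family gene CER26, by 4.84. KAS III, the enzyme that opens plastid fatty acid synthesis, differed by 3.09. The remaining genes of this direction were TRANS11 (3.33), the ribosomal protein-related gene AT3G58660 (3.59), the tRNA synthetase-family gene AT4G33760 (3.88), the armadillo-repeat gene AT4G23540 (3.19), AT3G16200 (4.35) and AT4G18630 (5.34), all on the log2 scale with adjusted p between 0.0666 and 0.0878 in limma's fit.

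Among the genes lower with sucrose, the largest differences were in a pair of cell-wall glycosidases that are also known as sugar starvation markers. BGAL4, a beta-galactosidase gene, had 3.08, 2.88 and 2.94 with sucrose, against 9.63, 12.79 and 13.61 with mannitol. BXL1, a bifunctional xylosidase and arabinosidase gene, had 3.09, 2.94 and 2.94 with sucrose, against 8.90, 12.09 and 13.71 with mannitol. With sucrose both were near background on every array, and with mannitol replicate 1 was the lowest of the 3 for both. The log2 differences were -9.04 for BGAL4 (standard error 0.97) and -8.58 for BXL1 (standard error 1.10), with limma's adjusted p of 0.0564 and 0.0666. Without sugars BGAL4 had 6.20, 10.68 and 5.21, and the values spread widely.

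AKINBETA1, which encodes a beta subunit of the kinase SnRK1, had 3.04, 3.16 and 5.01 with sucrose, against 8.77, 9.33 and 10.29 with mannitol. Every mannitol value exceeded every value of sucrose and of no sugars, and the difference between the sugars was -5.72 (limma, adjusted p = 0.0666). BZIP1, a transcription factor of the low-energy response, had 4.51, 6.05 and 5.90 with sucrose, against 9.60, 10.79 and 11.89 with mannitol. The treatments did not overlap, although mannitol replicate 1 was again the lowest. RZPF34, a RING zinc-finger gene, had 5.77, 2.58 and 3.46 with sucrose, against 9.30, 9.78 and 10.73 with mannitol. FRO6, a ferric reductase gene whose probes also match a close relative, had 2.35, 3.78 and 3.73 with sucrose, against 7.37, 10.23 and 11.11 with mannitol. Its values without sugars, 11.05, 12.65 and 10.42, were as high as those with mannitol, and sucrose was lower than no sugars as well (limma, adjusted p = 0.0121).

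LrgB (AT1G32080), which encodes the plastid transporter of the photorespiratory intermediates glycolate and glycerate, had 1.81, 2.88 and 3.08 with sucrose, against 7.02, 6.71 and 7.28 with mannitol. LOG1, an enzyme of cytokinin activation, had 2.56, 2.47 and 2.48 with sucrose, against 6.14, 5.38 and 5.97 with mannitol, and 2.56, 2.54 and 2.52 without sugars. For LOG1 only the mannitol arrays were above background. DOF4.7, a transcription factor gene, had 3.30, 3.23 and 4.13 with sucrose, against 6.78, 6.71 and 7.28 with mannitol, and the mannitol arrays were again the high ones. FRA8, a glycosyltransferase of xylan synthesis, differed by -4.29, and OASA2, of the O-acetylserine lyase family that makes cysteine, by -3.97. AT2G17710 (-4.89) and AT1G01770 (-3.64), both without an annotated role, complete the 14.

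The arrays without sugars show which sugar stood apart from the buffer alone. Their mean was nearer to mannitol in 22 of the 33 genes and nearer to sucrose in 11. Over all genes tested it was nearer to sucrose in 46.4%. In GPT2, LOX3, PLP9 and ANNAT3 the mean without sugars was nearer to mannitol, and the sucrose arrays stood apart from both. GALS1, with 2.64, 5.90 and 6.04 without sugars, counted as nearer to mannitol, but its mean without sugars lay about midway. In SQE6, LOG1, DOF4.7, FRA8 and AT1G01770 it was nearer to sucrose, and the mannitol arrays stood above both. In AT4G33760, AT3G16200, AT4G13840 and AT1G80130 it was nearer to sucrose as well, with the mannitol arrays below both. Tested by themselves, sucrose against no sugars gave 13 of 11130 genes at an adjusted p under 0.05 (0.117%), and mannitol against no sugars gave 10 of 11095 (0.0901%). These comparisons share arrays with each other and with the main comparison, so their values are set side by side only.

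Genes known to be induced by darkness or lack of sugar were lower with sucrose as a group. Of 25 such genes 22 were tested, 20 had lower means with sucrose and 2 higher ones, 15 had treatments that did not overlap (all lower, against 8.43% of all genes tested), and 5 reached an adjusted p under 0.1 (against 0.125%). Their median log2 difference was -2.65 (-1.97 with no filter), against 0.01 over all genes. SEN1, a senescence- and dark-induced gene, had 2.13, 2.45 and 2.44 with sucrose, against 7.18, 11.32 and 13.49 with mannitol. With sucrose it was near background on every array, whereas the mannitol arrays spread over more than 6 log2 units, and the difference of -8.32 had adjusted p = 0.112 in limma's fit. TPS11, a trehalose phosphate synthase-like gene, had 7.47, 8.02 and 8.55 with sucrose, against 10.05, 11.83 and 12.14 with mannitol. KFB50, a kelch-repeat F-box gene, had 4.00, 4.74 and 8.02 with sucrose, against 9.61, 10.13 and 10.25 with mannitol. The treatments did not overlap in either. ATG8E, which encodes a ubiquitin-like protein of the autophagosome, had 7.55, 6.17 and 8.14 with sucrose, against 10.22, 10.99 and 11.89 with mannitol, and 10.72, 11.26 and 10.79 without sugars. The arrays without sugars lay with those of mannitol. BGAL1, another beta-galactosidase gene, had 4.93, 4.82 and 3.02 with sucrose, against 5.17, 11.77 and 13.64 with mannitol. Its mannitol replicate 1 was only just above the sucrose values. These are lists chosen with earlier results of these data known, and their counts describe the arrays rather than test the list. Except for SQE6, no member of any list passed at an adjusted p under 0.05, so higher and lower describe measured values.

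The kinase and the transcription factors of the low-energy response moved less uniformly. Of 6 tested subunit genes of SnRK1, AKINBETA1 and KING1 had treatments that did not overlap, both lower with sucrose (against 8.43% of all genes tested), and the median difference was -0.19, or -0.44 to -0.32 when any 1 of the 6 arrays was left out. KING1, a gamma-type subunit, had 8.19, 7.49 and 8.71 with sucrose, against 9.46, 10.12 and 10.39 with mannitol. Of 8 tested C- and S1-group bZIP genes, BZIP1 and BZIP63 were lower and BZIP11 was higher without overlap (against 8.43% and 9.62% of all genes tested). BZIP63 had 3.28, 3.10 and 4.80 with sucrose, against 6.13, 8.72 and 9.90 with mannitol. BZIP11, whose translation is known to be repressed by sucrose, had 11.34, 10.62 and 10.66 with sucrose, against 9.32, 9.71 and 9.72 with mannitol. These are opposite directions within a single family, and neither passed (limma, adjusted p = 0.169 and 0.33).

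The list of genes around the G-protein itself centred near 0, with a median difference of 0.01 over 15 tested genes. Of the 15, 3 were higher and 2 lower without overlap (against 9.62% and 8.43% of all genes tested), and the median of G-protein genes was 0.01, or -0.38 without sucrose replicate 3 and -0.35 without mannitol replicate 1. The 3 higher ones were RACK1A, RACK1B and RACK1C, scaffold proteins with a beta-subunit-like fold that also sit on the ribosome. RACK1A had 9.19, 10.43 and 9.80 with sucrose, against 8.56, 6.13 and 7.07 with mannitol. RACK1B had 9.79, 11.03 and 10.59 with sucrose, against 8.00, 7.47 and 5.27 with mannitol. RACK1C had 5.78, 9.36 and 8.93 with sucrose, against 5.01, 5.17 and 3.79 with mannitol. In each the sucrose arrays were the higher ones, by 2.55, 3.56 and 3.37 for A, B and C, with adjusted p of 0.241, 0.169 and 0.256 in limma's fit. RGS1 was among the lower ones.

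**Figure D2:**
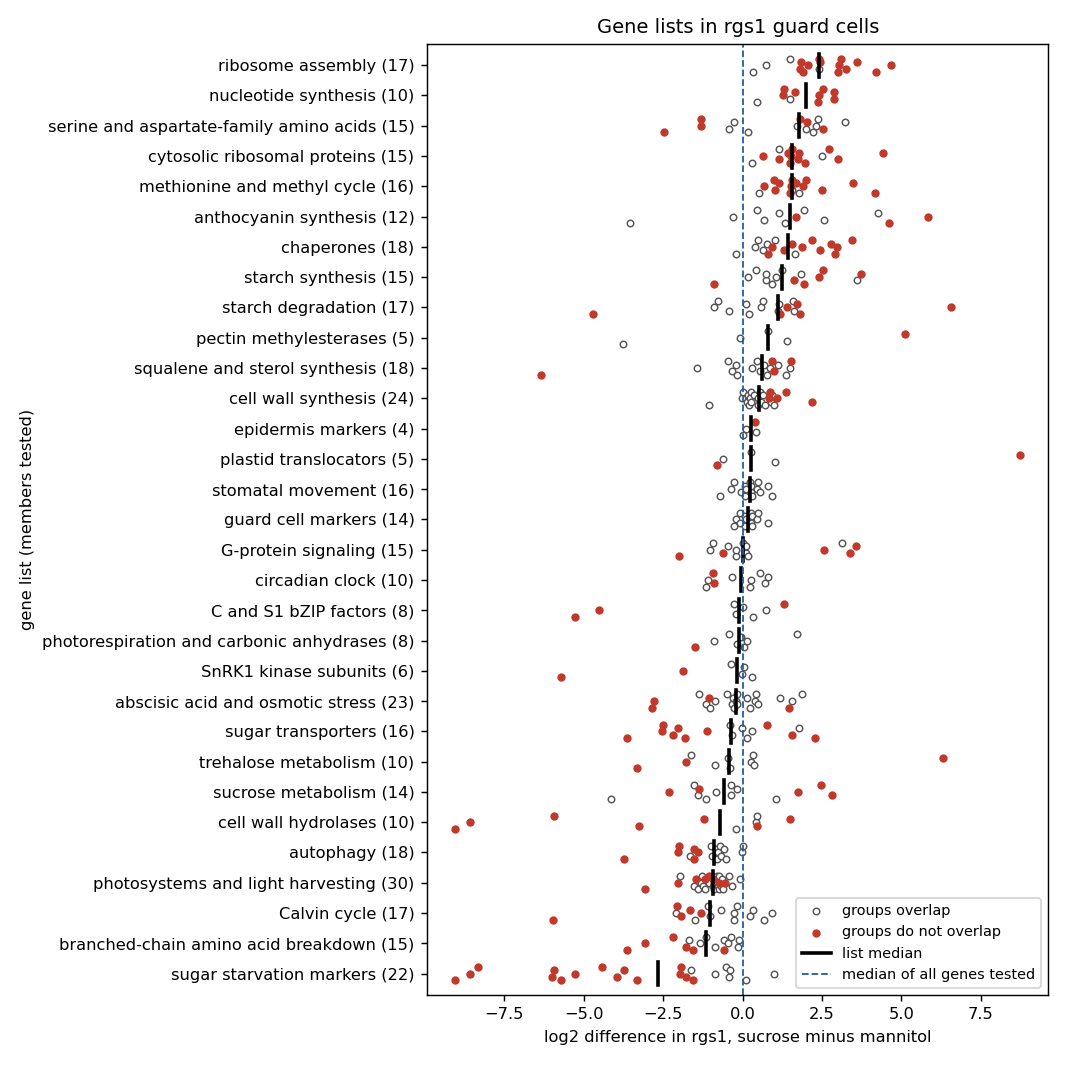
Log2 difference between sucrose and mannitol in rgs1 guard cells for the tested members of each gene list, with each point a gene, filled where the treatments did not overlap, and the line at each list's median. Sugar starvation markers lie left of 0 with a median of -2.65, ribosome assembly lies right with a median of 2.42, and guard cell markers stay near 0.

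Genes for making starch were mostly higher with sucrose. Of 15 tested genes of starch synthesis, 14 had higher means, 5 were higher without overlap and 1 lower (against 9.62% and 8.43% of all genes tested), and the median was 1.24. APL3, a large subunit of ADP-glucose pyrophosphorylase, which makes the glucose donor for starch, had 10.81, 10.55 and 9.93 with sucrose, against 7.66, 8.36 and 7.68 with mannitol. The branching enzyme gene SBE2.1 had 10.38, 10.10 and 9.04 with sucrose, against 8.03, 6.26 and 7.99 with mannitol, and the debranching enzyme gene ISA2, needed to shape amylopectin, had 9.83, 6.36 and 6.36 with sucrose, against 6.19, 2.49 and 2.73 with mannitol. In these 3 the treatments did not overlap. GBSS1, the granule-bound synthase that makes amylose, had 8.37, 8.04 and 4.16 with sucrose, against 2.32, 5.15 and 2.31 with mannitol, and sucrose replicate 3 lay below mannitol replicate 2. The exception was SS4, which initiates granules, with 6.84, 7.07 and 6.05 with sucrose, against 7.55, 7.73 and 7.42 with mannitol, lower by 0.91 with sucrose. None reached an adjusted p under 0.1 (APL3, limma, adjusted p = 0.137).

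Genes for breaking starch down were also mostly higher, with 13 of 17 higher by their means, 5 higher and 1 lower without overlap (against 9.62% and 8.43% of all genes tested) and a median of 1.13, or 0.56 without mannitol replicate 1. Besides ISA3 these included SEX1, the glucan, water dikinase that phosphorylates starch, with 12.38, 12.19 and 11.30 with sucrose, against 10.92, 10.97 and 9.74 with mannitol. PHS1, the plastid starch phosphorylase, had 10.58, 10.55 and 9.34 with sucrose, against 7.87, 9.32 and 7.81 with mannitol. In both, the groups lay close but apart. AMY1, an alpha-amylase that is exported from the cell, had 2.47, 2.33 and 5.09 with sucrose, against 7.07, 7.59 and 9.35 with mannitol. It ran the other way, and without sugars it was near background at 2.43, 2.38 and 2.37, so that the mannitol arrays were the high ones. The plastid translocators had a median of 0.25 over 5 tested genes, of which GPT2 was the only gene higher without overlap and PGLCT the only one lower.

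**Figure D3:**
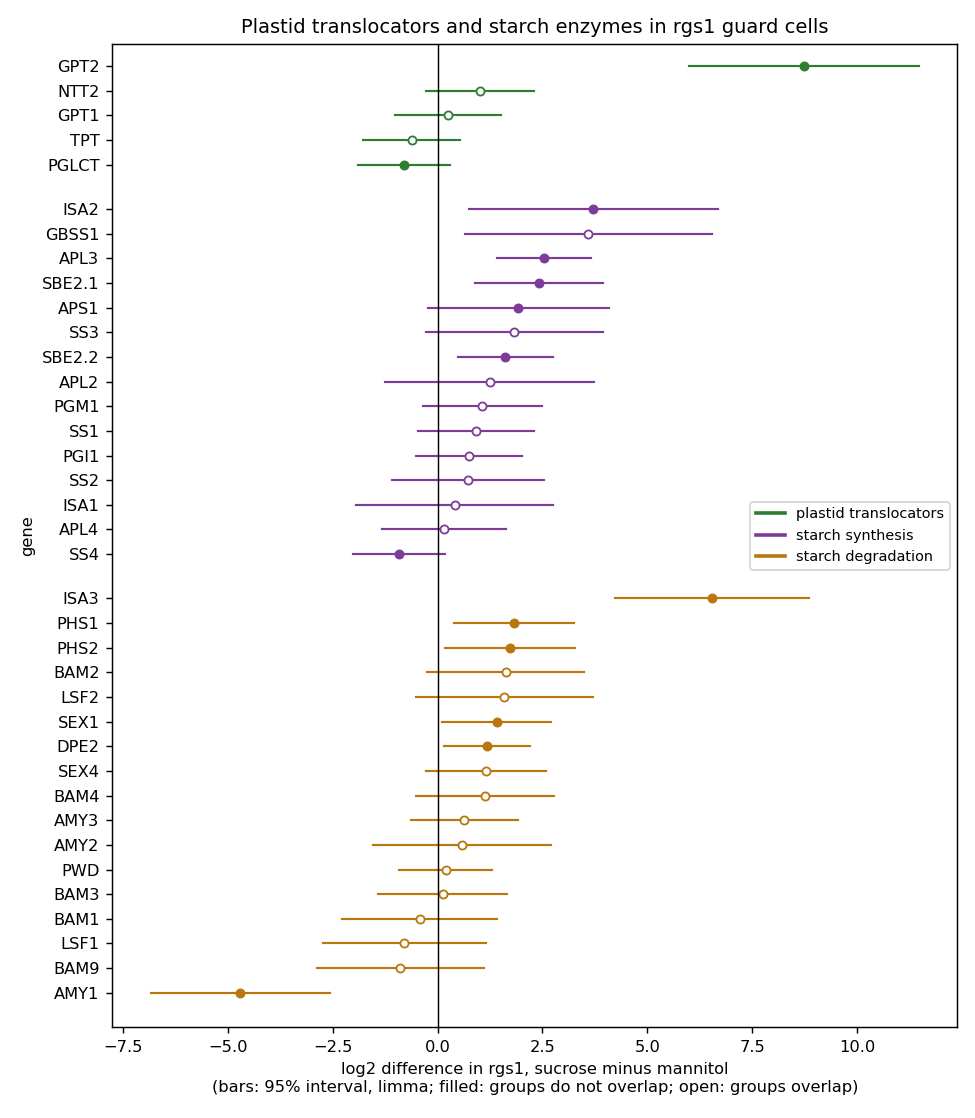
Log2 difference between sucrose and mannitol in rgs1 guard cells, with 95% intervals from limma's fit, for tested plastid translocators and genes of starch synthesis and starch degradation. Filled points mark genes whose treatments did not overlap. GPT2 and ISA3 lie farthest right and AMY1 farthest left.

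Sugar transporters did not share a direction. Of 16 tested, 3 were higher and 7 lower without overlap (against 9.62% and 8.43% of all genes tested), with a median of -0.38, or -0.60 without sucrose replicate 3 and -0.05 with no filter. The proton-coupled sucrose transporter gene SUC1 had 9.85, 8.02 and 9.63 with sucrose, against 10.96, 10.99 and 11.01 with mannitol. Its mannitol values lay within 0.1 of each other and above the sucrose values. STP4, a monosaccharide importer gene, had 11.58, 11.62 and 12.42 with sucrose, against 12.85, 13.12 and 13.04 with mannitol. ESL1, of the monosaccharide transporter family, had 3.18, 2.08 and 2.30 with sucrose, against 5.36, 6.06 and 7.03 with mannitol, and 2.09, 2.08 and 2.08 without sugars. For ESL1 only the mannitol arrays were above background. SWEET1, a glucose facilitator gene, had 9.35, 9.92 and 9.65 with sucrose, against 8.50, 7.08 and 6.53 with mannitol and was higher with sucrose by 2.27 (limma, adjusted p = 0.224).

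In trehalose metabolism, which sets the sucrose signal trehalose 6-phosphate, TPS5 and TPS11 ran opposite ways. TPS5 had 11.67, 11.40 and 10.99 with sucrose, against 8.58, 3.92 and 2.67 with mannitol, and 7.30, 7.34 and 6.24 without sugars. The sucrose arrays were the highest of the 9, and mannitol replicate 1 was far above the other mannitol replicates, so that the difference of 6.30 carried a standard error of 1.38 and adjusted p = 0.169 in limma's fit. In sucrose metabolism 3 of 14 genes were higher and 2 lower without overlap (against 9.62% and 8.43% of all genes tested). SPS1F, a sucrose phosphate synthase gene, had 10.15, 10.18 and 9.83 with sucrose, against 8.54, 8.69 and 7.66 with mannitol. CINV2, a cytosolic invertase gene, had 9.08, 8.46 and 6.67 with sucrose, against 6.65, 4.25 and 4.87 with mannitol. Both were higher with sucrose. The mitochondrial invertase gene A/N-INVC, with 8.90, 10.11 and 10.66 with sucrose, against 11.73, 12.57 and 12.29 with mannitol, was lower. The vacuolar invertase gene VI1, with 3.01, 3.13 and 6.99 with sucrose, against 9.45, 6.47 and 9.59 with mannitol, overlapped because of sucrose replicate 3.

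The genes of protein synthesis were higher with sucrose as groups. Of 17 tested genes of ribosome assembly, 13 were higher without overlap (against 9.62% of all genes tested) and none was lower, with a median of 2.42. Of 15 tested genes of cytosolic ribosomal proteins, 12 were higher and none lower, with a median of 1.56. Some of these genes have near-identical copies, and probe sets listed for several loci were left out. FIB2, the fibrillarin that methylates ribosomal RNA, had 7.94, 10.62 and 8.96 with sucrose, against 6.53, 5.07 and 5.09 with mannitol. BRX1-2, a factor of large-subunit assembly, had 8.54, 8.37 and 7.16 with sucrose, against 2.35, 3.75 and 5.42 with mannitol, and BOP1, of the same process, had 10.35, 11.10 and 9.52 with sucrose, against 8.21, 7.68 and 7.88 with mannitol. In all 3 the lowest sucrose value exceeded the highest mannitol value. Among the ribosomal proteins RPL24A had 9.59, 10.16 and 10.53 with sucrose, against 7.18, 7.42 and 7.48 with mannitol. RPL23AB had 7.87, 8.54 and 9.54 with sucrose, against 6.46, 3.64 and 2.62 with mannitol. The mannitol replicates of RPL23AB differed widely and those of RPL24A did not, and limma's adjusted p was 0.179 and 0.112 for these.

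Supply of nucleotides, methyl groups and folding capacity ran in the same direction. Of 10 tested genes of nucleotide synthesis 8 were higher without overlap (against 9.62% of all genes tested), of 16 of the methionine and methyl cycle 13, and of 18 chaperones 11, with none lower in any of these lists and medians of 2.00, 1.56 and 1.43 in that order. GMPS, which makes GMP, had 7.72, 9.28 and 8.98 with sucrose, against 7.53, 4.87 and 4.93 with mannitol. ADK2, an adenosine kinase that clears a by-product of methylation, had 8.47, 9.13 and 7.84 with sucrose, against 6.31, 4.93 and 3.77 with mannitol. NMT3, a phosphoethanolamine methyltransferase gene, had 10.21, 11.22 and 8.66 with sucrose, against 7.41, 6.49 and 3.67 with mannitol. The sucrose arrays were the higher ones in each. MAT4, an S-adenosylmethionine synthetase gene, was among the brightest probe sets, with 14.44, 14.59 and 14.04 with sucrose, against 13.24, 13.36 and 13.36 with mannitol. Its difference of 1.03 was small but without overlap. The endoplasmic reticulum chaperone BIP1 had 13.24, 13.14 and 13.92 with sucrose, against 11.32, 10.82 and 9.40 with mannitol. The cytosolic chaperone HSP70 had 12.30, 12.38 and 11.47 with sucrose, against 9.67, 8.55 and 9.61 with mannitol, likewise higher on all sucrose arrays.

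Of 15 tested genes of serine and aspartate-family amino acids, 3 were higher and 3 lower without overlap (against 9.62% and 8.43% of all genes tested), with a median of 1.79. DHDPS1, which opens lysine synthesis, had 6.66, 6.15 and 6.32 with sucrose, against 3.71, 4.67 and 4.63 with mannitol. EDA9, a phosphoglycerate dehydrogenase of serine synthesis, had 10.12, 13.24 and 12.44 with sucrose, against 10.30, 7.38 and 8.42 with mannitol. EDA9 overlapped because sucrose replicate 1 lay just below mannitol replicate 1, and its values without sugars, 6.18, 5.99 and 6.39, were below all of these.

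Genes for recovering carbon were lower with sucrose. Of 15 tested genes of branched-chain amino acid breakdown 6 were lower without overlap (against 8.43% of all genes tested) and none higher. Their median was -1.15, or -0.75 without mannitol replicate 3 and -1.68 without mannitol replicate 2. Of 18 autophagy genes 6 were lower without overlap and none higher, with a median of -0.89. MCCA, a subunit of methylcrotonyl-CoA carboxylase in leucine breakdown, had 5.71, 4.71 and 5.05 with sucrose, against 7.33, 8.59 and 10.47 with mannitol. IVD, which acts just before it, had 5.30, 8.04 and 7.91 with sucrose, against 8.71, 10.05 and 11.69 with mannitol. For both, mannitol replicate 3 was the highest array. ATG8I, a relative of ATG8E, had 9.34, 8.94 and 10.97 with sucrose, against 11.03, 11.97 and 12.38 with mannitol, and the closest values of the groups differed by less than 0.1.

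All 30 tested genes of the photosystems and light harvesting had lower means with sucrose, with a median of -0.92, and in 8 the treatments did not overlap (against 8.43% lower over all genes tested). With each gene set to its mean over the 9 rgs1 arrays, the median level of the list was -1.30, -0.93 and 0.38 on the sucrose arrays, 0.08, 0.02 and 0.56 on the mannitol arrays and 0.18, 0.24 and 0.79 on those without sugars. Sucrose replicate 3 was thus near the mannitol level, and the median difference was -1.43 without it and -0.55 without sucrose replicate 1. PSAN, of photosystem I, had 6.91, 6.78 and 7.71 with sucrose, against 7.98, 9.28 and 10.25 with mannitol. PSBO2, of the oxygen-evolving complex, had 4.07, 2.55 and 4.00 with sucrose, against 4.67, 5.71 and 9.46 with mannitol. Of 17 Calvin cycle genes 13 had lower means and 4 higher ones, 5 were lower without overlap and none higher, with a median of -1.03 that lay between -1.60 without sucrose replicate 3 and -0.40 without sucrose replicate 2. CP12-2, a small protein that holds Calvin cycle enzymes inactive in the dark, had 2.73, 3.68 and 5.85 with sucrose, against 8.51, 10.37 and 11.32 with mannitol. It differed by -5.98 (limma, adjusted p = 0.107), and sucrose replicate 3 was again the highest of its group. RBCS1A, a Rubisco small-subunit gene whose probes match relatives as well, had 11.31, 10.51 and 13.14 with sucrose, against 13.22, 13.36 and 13.34 with mannitol, with sucrose replicate 3 just below mannitol. These genes are also abundant in mesophyll, whose photorespiration and carbonic anhydrase genes had a median of -0.11, and the part of mesophyll RNA was not tested.

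**Figure D4:**
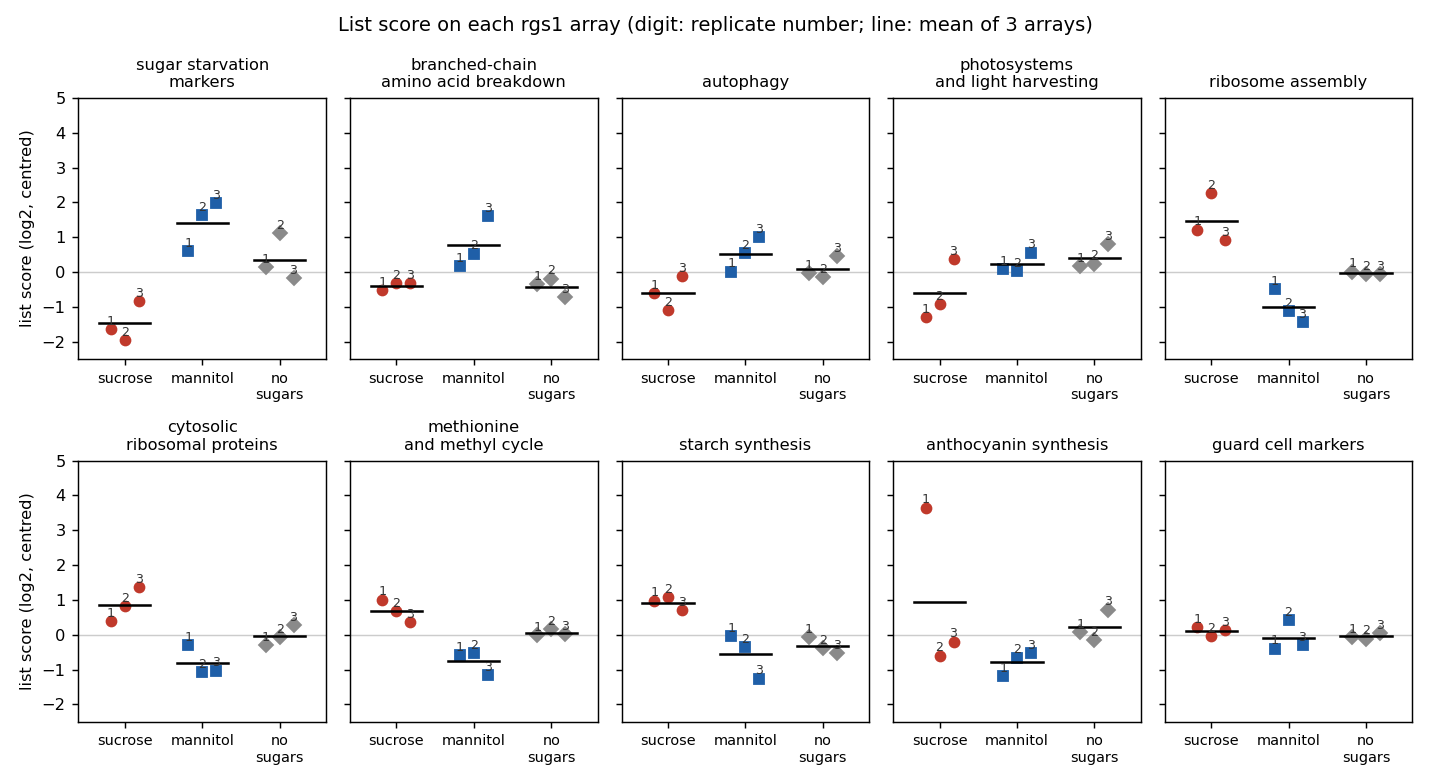
Median log2 level of 10 gene lists on each of the 9 rgs1 arrays, each gene set to its mean over these arrays. Points are arrays with their replicate number, and short lines are the means of 3 arrays. For photosystems sucrose replicate 3 lies at the level of mannitol, and for anthocyanin synthesis sucrose replicate 1 stands alone.

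Of 10 tested cell wall hydrolases 6 had lower means and 4 higher ones, and 2 were higher and 5 lower without overlap (against 9.62% and 8.43% of all genes tested), BGAL4, BGAL1 and BXL1 among the lower. The median of cell wall hydrolases was -0.70, between -1.22 without sucrose replicate 3 and -0.31 without sucrose replicate 2, and -0.13 with no filter. Of 24 genes of cell wall synthesis 5 were higher and none lower without overlap, with a median of 0.52, or 0.30 without mannitol replicate 3. UGP1, which makes UDP-glucose, had 10.87, 11.45 and 10.36 with sucrose, against 10.10, 8.89 and 7.15 with mannitol. The products of pectin methylesterase genes remove methyl groups from wall pectin. Of 11 such genes listed, 9 were used and 5 tested, and the counts cover these 5 only. Of the 5, 1 was higher without overlap, with a median of 0.79, or 0.23 without mannitol replicate 3. PME41 had 9.28, 8.62 and 11.21 with sucrose, against 5.40, 5.36 and 3.04 with mannitol, higher on every sucrose array, by 5.10 (limma, adjusted p = 0.119). PME17, with 2.32, 3.29 and 5.27 with sucrose, against 4.87, 8.43 and 8.92 with mannitol, had overlapping groups and its mean ran the other way. In squalene and sterol synthesis SQE6 was the only gene lower without overlap, 3 of 18 were higher, and the median was 0.62, or 0.235 without mannitol replicate 3.

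As a list, anthocyanin synthesis genes were highest on sucrose replicate 1, although some were high on other sucrose arrays as well. Of 12 tested genes 3 were higher and none lower without overlap (against 9.62% and 8.43% of all genes tested). The median difference of these genes was 1.50 in rgs1, and it was 0.13 without sucrose replicate 1 and 2.33 without sucrose replicate 2. In the wild type their median difference was 3.25. The median levels of the list, set in the same way, were 3.65, -0.60 and -0.20 on the sucrose arrays and -1.20, -0.66 and -0.53 on the mannitol arrays. UF3GT, a glycosyltransferase of the late pathway, had 13.76, 4.71 and 4.65 with sucrose, against 6.20, 4.79 and 4.42 with mannitol. CHS, chalcone synthase, which opens the pathway, had 12.27, 7.47 and 4.05 with sucrose, against 3.27, 1.50 and 1.49 with mannitol. CHS did not overlap between the sugars, whereas UF3GT was high in sucrose replicate 1 alone. PAP2, a MYB activator of the pathway, had 8.69, 8.55 and 5.37 with sucrose, against 3.38, 2.47 and 2.90 with mannitol, with sucrose replicates 1 and 2 high. TTG2, the trichome marker that is also known from flavonoid-derived seed pigment, was high on the same array, at 8.70 in sucrose replicate 1, and its part in these values was not tested.

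Stress and stomatal genes showed no common direction. Of 23 tested genes of abscisic acid and osmotic stress, 1 was higher and 3 lower without overlap, near the share of 18.1% in either direction over all genes. Their median was -0.20 and lay between -0.46 without mannitol replicate 3 and -0.03 without sucrose replicate 2. COR47, a dehydrin gene, had 8.09, 5.52 and 9.18 with sucrose, against 10.11, 11.03 and 10.23 with mannitol. RD26, a NAC transcription factor gene, had 9.64, 5.59 and 9.40 with sucrose, against 11.20, 10.28 and 11.49 with mannitol. In both the mannitol arrays were higher and sucrose replicate 2 was the lowest. Of 16 genes of stomatal movement none had treatments that did not overlap, and the median was 0.24. Of 10 clock genes 2 were lower without overlap, with a median of -0.05. The actin gene ACT2, often used as a control, had 10.80, 11.27 and 12.03 with sucrose, against 10.72, 11.42 and 10.61 with mannitol, and the groups overlapped. CCH1, the magnesium chelatase subunit listed under the symbol GUN5, had 11.28, 10.73 and 11.91 with sucrose, against 11.15, 12.43 and 11.26 with mannitol, also overlapping.

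Of the genes that the study itself picked out, 96 loci were looked up and 93 were tested. By their means 43 were higher and 50 lower with sucrose. In 82 the treatments did not overlap (against 18.1% of all genes tested), and 15 reached an adjusted p under 0.1 (against 0.295%). That list was chosen on these samples, so its counts are not independent evidence. FMO GS-OX2, a glucosinolate-modifying flavin monooxygenase gene, had 11.45, 10.64 and 9.53 with sucrose, against 6.32, 3.19 and 7.03 with mannitol. CXXS1, a thioredoxin-like gene, had 7.32, 6.47 and 6.35 with sucrose, against 8.87, 10.31 and 10.83 with mannitol. AT4G27450, without an annotated role, had 5.89, 4.63 and 7.10 with sucrose, against 9.81, 9.95 and 11.75 with mannitol. In none of the 3 did the groups overlap. LOX1, a lipoxygenase gene, had 3.58, 5.56 and 6.46 with sucrose, against 8.44, 8.44 and 9.52 with mannitol and ran opposite to LOX3. The cytokinin response factor gene CRF3 had 6.76, 5.57 and 4.70 with sucrose, against 2.71, 2.56 and 2.64 with mannitol, and the WD-40 gene AT3G10530 had 6.63, 8.04 and 5.69 with sucrose, against 3.61, 3.04 and 2.82 with mannitol. Mannitol values of both were near background. RGA1, a DELLA growth repressor gene, had 6.91, 7.17 and 7.44 with sucrose, against 5.38, 5.57 and 5.64 with mannitol, and its values without sugars, 7.37, 8.07 and 7.80, were nearer to sucrose.

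The response was then set beside that of wild-type guard cells, which shares no array with it. In the wild type 1 of 11131 genes passed an adjusted p under 0.05 (0.00898%), and groups did not overlap in 14.8%. Of the 33 genes at an adjusted p under 0.1 in rgs1, 32 had the same sign in the wild type (97%, against 64.4% of all genes tested in rgs1), 14 did not overlap in the same direction (against 11.6%), and 16 had an unadjusted p under 0.05 with the same sign (against 7.12%). The exception was KAS III, with a wild-type difference of -0.12. Only 29 of the 33 passed the filter in the wild type, so some of the matching signs rest on values near background. For FRA8 and LOG1, mannitol replicate 2 was the only wild-type array of either sugar above 4, at 8.54 and 5.09. The differences were a median of 4.41 in rgs1 and 2.39 in the wild type in size, but the genes were picked for large values in rgs1, which favours the larger one there.

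In both genotypes BGAL4 (-9.04 in rgs1, -8.11 in the wild type) and BXL1 (-8.58 and -8.78 in the same order) differed without overlap. GPT2 differed by 8.74 in rgs1 and by 5.65 in the wild type, where it had 11.08, 13.34 and 10.01 with sucrose, against 2.02, 10.55 and 4.92 with mannitol, so that mannitol replicate 2 lay among the sucrose values. Among the 3 genes that passed in rgs1, AT1G80130 had 4.04 in the wild type, SQE6, below the filter there, -3.55 and AT3G43270 0.92. AT3G43270 in wild-type guard cells had 4.60, 11.86 and 7.71 with sucrose, against 9.35, 3.93 and 8.12 with mannitol, so that the groups overlapped widely. LrgB, with -4.41 in rgs1 and -0.67 in the wild type, and DOF4.7, with -3.37 and -0.34, overlapped in the wild type as well. The sugar starvation list had a median of -3.31 in the wild type, and ribosome assembly one of 2.35, beside rgs1 medians of -2.65 and 2.42.

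**Figure D5:**
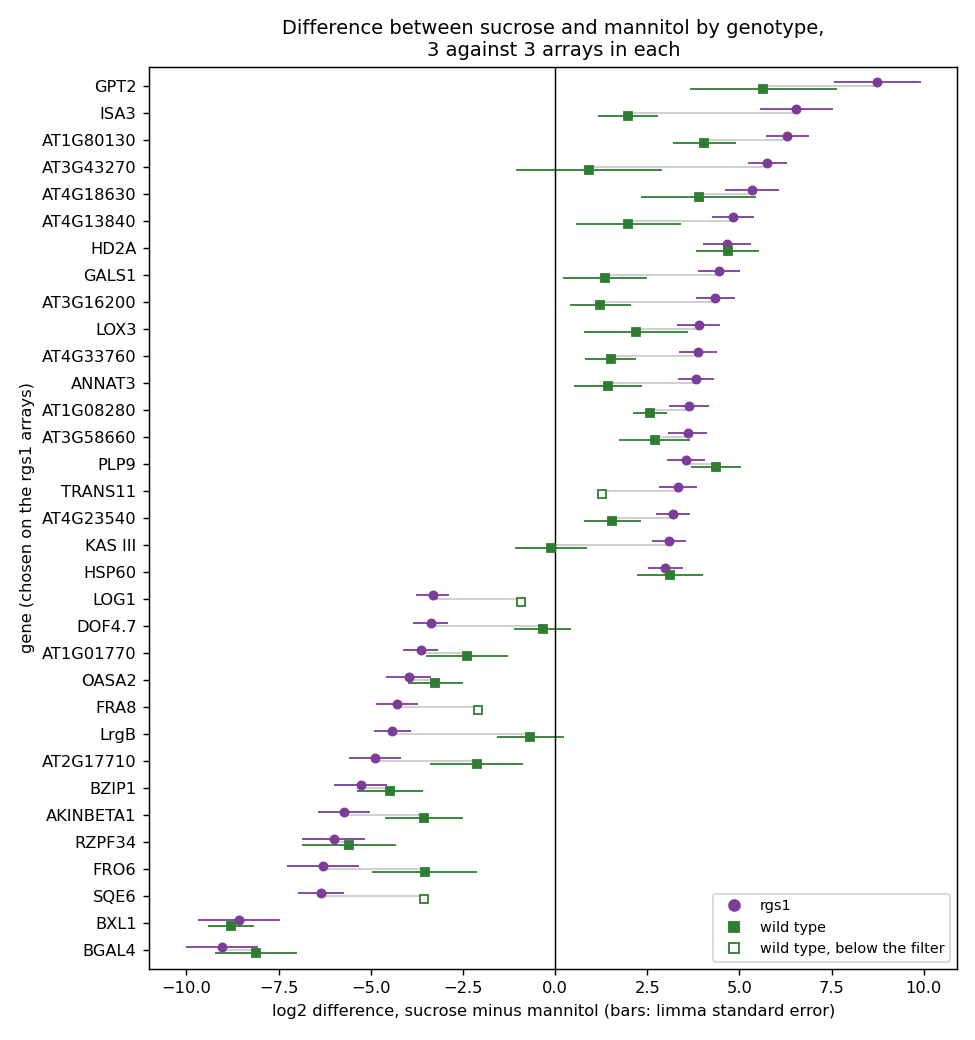
Log2 difference between sucrose and mannitol for the 33 genes at an adjusted p under 0.1 in rgs1, in rgs1 and in the wild type, each a mean of 3 arrays minus a mean of 3, with bars for limma's standard error. Open squares mark genes below the filter in the wild type. Signs match in 32 of 33 genes, and the smallest wild-type differences are those of LrgB (-0.67), DOF4.7 (-0.34) and KAS III (-0.12).

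Whether the sucrose response differed between the genotypes was tested itself, as the interaction of genotype and treatment in a limma fit of all 18 arrays. None of 12608 genes passed an adjusted p under 0.05 (0%), and 499 (3.96%) had an unadjusted p under 0.05. The 5 genes with the smallest p were AT5G39030, AT5G54830, AT1G49380, ARC5 and LSU2, each with adjusted p = 1. In rgs1 guard cells AT5G39030, annotated as a protein kinase family gene, had 7.62, 7.07 and 7.32 with sucrose, against 8.24, 8.44 and 6.62 with mannitol. In the wild type it had 3.27, 4.04 and 5.54 with sucrose, against 8.85, 9.15 and 8.11 with mannitol. The rgs1 groups overlapped and the wild-type groups did not. ARC5, a dynamin-like protein of chloroplast division, had 3.97, 5.77 and 6.50 with sucrose, against 5.75, 6.91 and 6.70 with mannitol, in rgs1. Its wild-type values were 6.44, 8.31 and 8.21 with sucrose, against 3.68, 4.91 and 4.31 with mannitol. LSU2, a gene of the sulfur-starvation response, had 7.02, 8.11 and 6.99 with sucrose, against 7.03, 8.28 and 7.88 with mannitol, in rgs1, and in the wild type 8.83, 7.15 and 8.36 with sucrose, against 5.42, 4.89 and 5.88 with mannitol. In both, sucrose was higher in the wild type without overlap, and the rgs1 groups overlapped. For AT1G49380, annotated as a cytochrome c biogenesis gene, the rgs1 values with sucrose and mannitol were all near background, between 3.04 and 3.14. No response could be measured there. The study also names this gene for a difference between the genotypes. Among the 33 genes, 8 had an interaction with an unadjusted p under 0.05, against 3.99% of all genes tested in rgs1, and since the 33 were picked on the same rgs1 arrays this share is a description only. For RGS1 itself the interaction was -2.68 (limma, unadjusted p = 0.00388, adjusted p = 1), with rgs1 values below 4 with sucrose and between 4.93 and 5.75 with mannitol.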

How the data were processed

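RNA of dissected guard cells was hybridized to ATH1 arrays, 1 sample an array. Per the study's methods, Microarray Suite 5.0 served for scanning control and image analysis, and the signals were computed with GCRMA. The deposited values are log2 signals of 22746 probe sets on 18 arrays, with no control probe sets left in the table, and they match the value table of the series exactly. GCRMA adjusts for background and normalizes between arrays, which leaves unexpressed genes on a floor and makes folds from that floor unreliable. No further normalization was applied. Genes with a log2 value of at least 4 on 3 of the 6 arrays were tested with limma 3.58.1 (R 4.3.3), treatment as the only term, with Benjamini-Hochberg adjustment and a threshold of 0.05. The other comparisons were fitted in the same way, and the interaction in a fit of all 18 arrays. Differences are sucrose minus mannitol. The fit was tested on simulated data. Array data carry no read depth, so the number of arrays limits the precision.

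Names came from the RefSeq annotation of TAIR10.1. Probe sets with several genes (503) were named for none. The build behind the array design is not given in the sources used here, so no coordinates are printed.

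Named genes were all those at an adjusted p under 0.05, the 10 largest differences each way at an adjusted p under 0.1, the 4 largest of each gene list, genes the study names, RGS1, CCH1, ACT2 and RBCS1A, and the 5 genes with the smallest interaction p. The other members of the 33 and further list members were printed after their values were seen. The comparison, the 33 gene lists and the alternatives were chosen with earlier results of these data known. Alternatives were other filters, normalizations, priors and array weights, other sets of arrays in the fit, a term for the later growth batch (taken as replicate 3, since the methods place 1 replicate in a batch grown later), the replicate number as a block, and leaving out each array. The deposited values came without columns for the authors' own comparisons.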

Additional observations from a re-analysis of the deposited data

Results flagged for a closer look

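In 2 of 561 genes examined for it, every array of rgs1 moved one way between the sugars and every array of the wild type the other. The 561 were list members, genes printed here, genes the study names and the 5 genes with the smallest interaction p. AT5G54830 was 1 of those 5, and the study names MYBC1 for a difference between the genotypes. The pool was thus chosen partly for this contrast, and the count of 2 is a description only. AT5G54830 differed by -1.80 between sucrose and mannitol in rgs1 and by 1.73 in the wild type. The interaction had an unadjusted p of 0.000482 and an adjusted p of 1 in limma's fit of 18 arrays, so that the difference between the genotypes did not pass. Its rgs1 values with sucrose, 2.40, 1.89 and 4.09, were mostly near background. MYBC1, a MYB-family gene, differed by 0.88 in rgs1 and by -0.50 in the wild type, with an unadjusted p of 0.00884 and an adjusted p of 1. Over all genes tested in rgs1, 491 were without overlap in the same direction in both genotypes and 19 in opposite directions. No formal outlier test was run, since groups of 3 arrays are too small for it.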

How the results depend on the processing

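The main count of 3 genes was 33 at an adjusted p under 0.1, 217 at 0.2 and 1368 at an unadjusted p under 0.05. It was 0 with no filter, 14 with a filter of 6, 0 with plain t statistics, 19 with array weights, 8 with a term for the growth batch, 44 with the 9 rgs1 arrays in a single fit, 5 with the 12 arrays of both sugars and genotypes and 68 with all 18 arrays. Leaving out arrays gave 0 to 21. For sucrose against no sugars (13 genes) the counts were 44, 166 and 1298 at the same 3 thresholds, 7 with no filter, 21 with all 18 arrays and 1 to 9 without single arrays. For mannitol against no sugars (10 genes) they were 45, 109 and 1099, 3 with no filter and 0 to 3 without single arrays. The interaction (0 genes) had 499 at an unadjusted p under 0.05 and 0 to 1 without single arrays. Samples with the same replicate number did not deviate together (correlations of 0.02, -0.12 and 0.03), so the numbers were not taken as pairs. With the replicate block 0 genes were called between sucrose and mannitol, 1 between sucrose and no sugars, 0 between mannitol and no sugars and 0 for the interaction. The direction turned in 4 cases, all of genes far from the threshold: CCH1 (GUN5) to 0.11 without mannitol replicate 2 and to 0.40 without replicate 2 of both sugars (range -0.78 to 0.40), UF3GT to -0.452 without sucrose replicate 1 (range -0.452 to 4.102), and ACT2 to -0.039 without replicate 3 of both sugars (range -0.039 to 0.75). With no filter, list medians moved by more than the spread among arrays of a treatment for sugar transporters (-0.05), starch degradation (0.63) and pectin methylesterases (-0.06). They changed by less than that spread for sugar starvation markers (-1.97), cell wall hydrolases (-0.13), trehalose metabolism (-0.06) and sucrose metabolism (-0.26). Without single arrays they also moved for starch synthesis (0.83 without mannitol replicate 3, 1.58 without mannitol replicate 2), chaperones (1.07 without sucrose replicate 1) and epidermis markers (0.072 without sucrose replicate 1). The methionine and methyl cycle moved to 1.16 without mannitol replicate 3. Without mannitol replicate 1, serine and aspartate-family amino acids moved to 2.22 and the circadian clock to -0.465. Branched-chain amino acid breakdown moved to -1.68 without mannitol replicate 2. The medians of lists that centred near 0 turned sign without single arrays, such as G-protein signaling (-0.38 without sucrose replicate 3) and the circadian clock (0.27 without mannitol replicate 2). Why the counts differ between settings was not tested.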
